A study of Mus musculus with 2 samples.

Results

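Type I interferon-stimulated genes, 34 listed by name, were followed in single gingival cells from recipients of a bone marrow transplant (BMT). Of the 34, 32 were found among the 32285 genes of the deposited matrices, and Mx1 and Mx2 were not analysed here. One library was labelled 10% Tet2-/- BMT and the other 10% Tet2+/+ BMT, so the recipients differed in whether the transplant label carried loss of Tet2, which encodes an oxidising enzyme acting on methylated DNA bases. Recipients of both groups were taken 12 weeks after transplantation, after 5 days of ligature-induced periodontitis, in which a thread tied around a tooth inflames the gum. Per the labels' protocol the sort gate was CD45.2+CD11b+ for 10% Tet2-/- BMT and CD45+CD11b+ for 10% Tet2+/+ BMT, although both sample titles open with CD45.2+CD11b+, so gate and genotype cannot be told apart. The labels used here give neither the number, age or sex of the animals nor the part of Tet2 that was removed. With 1 library per group there is no spread between animals and no test was made. All intervals are exact 95% intervals of counting error only.

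Type I interferons are secreted in response to viral or bacterial nucleic acid and bind the Ifnar1 and Ifnar2 receptor chains, which act through the kinases Jak1 and Tyk2. An activated complex that includes Stat2 and Irf9 binds the interferon-stimulated response element in the promoters of its targets. Those targets include RNA-binding proteins, oligoadenylate synthetases, the ubiquitin-like modifier Isg15, sensors of nucleic acid and the factor Irf7, which in turn raises interferon transcription. In inflamed tissue, neutrophils and macrophages are among the cells known to carry this programme.

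The members sit in several gene clusters of the mm10 genome (GENCODE M21). Ifit2, Ifit3, Ifit3b and Ifit1 follow one another on chromosome 19 between 34550694 and 34650009, and Oas2, Oas3 and Oas1a lie on chromosome 5 between 120730333 and 120907521. Oasl2 (114896936 to 114912234) and Oasl1 (114923240 to 114937915) are neighbours on chromosome 5, and Rsad2 (26442746 to 26456452, minus strand) and Cmpk2 (26469204 to 26479837, plus strand) are neighbours on chromosome 12. All 32 are annotated as protein-coding, and the counts are per gene, with no split into exons or transcripts. RefSeq promoters (GRCm38.p6), 300 bases around each start site, were given for 25 members. The letters GAAANNGAAA, the core of the interferon-stimulated response element, occurred on either strand in the promoters of 13 of these 25 (52%), and in 3.99% of the 27025 genes with a promoter in the table. A match is a description of the letters, and overlapping matches were merged when marked. Promoters of 5 members are printed because their levels differed to unlike degrees between the libraries: Ifit1 and Ifit3 were far lower in 10% Tet2-/- BMT neutrophil-like cells, Isg15 and Rsad2 were close or somewhat lower, and Oasl2, also far lower, is the one of the 5 with no match in its window. Each line gives bases 250 to 51 before the start site, 5′ to 3′ on the gene's strand, with matches in capitals.
Ifit1 (chr19:34640639-34640838, plus strand): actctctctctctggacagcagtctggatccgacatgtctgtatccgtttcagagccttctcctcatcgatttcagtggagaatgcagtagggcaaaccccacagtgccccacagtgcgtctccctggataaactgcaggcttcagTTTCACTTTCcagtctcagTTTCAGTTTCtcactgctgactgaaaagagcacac
Ifit3 (chr19:34583279-34583478, plus strand): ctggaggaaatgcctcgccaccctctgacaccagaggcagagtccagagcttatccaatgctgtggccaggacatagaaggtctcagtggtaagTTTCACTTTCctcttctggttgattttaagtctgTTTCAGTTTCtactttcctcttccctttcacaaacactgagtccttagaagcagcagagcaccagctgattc
Isg15 (chr4:156200869-156201068, minus strand): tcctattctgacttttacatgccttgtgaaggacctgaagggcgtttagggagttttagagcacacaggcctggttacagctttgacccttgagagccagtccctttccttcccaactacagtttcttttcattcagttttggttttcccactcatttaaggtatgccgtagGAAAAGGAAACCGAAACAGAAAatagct
Rsad2 (chr12:26456503-26456702, minus strand): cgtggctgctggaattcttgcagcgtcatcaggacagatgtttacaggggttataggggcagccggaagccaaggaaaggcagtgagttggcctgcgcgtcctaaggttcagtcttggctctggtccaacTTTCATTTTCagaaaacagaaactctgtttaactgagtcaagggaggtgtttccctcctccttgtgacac
Oasl2 (chr5:114896684-114896883, plus strand): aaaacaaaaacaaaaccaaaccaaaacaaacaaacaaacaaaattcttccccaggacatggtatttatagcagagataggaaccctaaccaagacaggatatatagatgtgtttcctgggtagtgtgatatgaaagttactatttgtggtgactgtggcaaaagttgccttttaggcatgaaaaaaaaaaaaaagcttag
Ifit1 and Ifit3 carry 2 separate matches each, Isg15 carries 3 that overlap in 1 stretch, and Rsad2 carries 1. In these 4 promoters the match nearest to the start site ends 75, 112, 56 and 110 bases before it.

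Cells with at least 500 unique molecular identifiers (UMIs, counted transcripts), 250 genes and at most 10% mitochondrial UMIs numbered 9596 in 10% Tet2-/- BMT and 11672 in 10% Tet2+/+ BMT, with a median of 5920 and 5009 UMIs per cell. The 2 libraries shared 31 cell barcodes, 0.323% and 0.266% of their cells. Cells were clustered without the members and named from marker genes, which gave 11 named classes with 8570 and 10689 cells. Itgam, which encodes CD11b, was detected in 76.1% and 72.7% of kept cells, and in 42.1% and 44.1% of the T cell-like cells that the sort also held. Tet2 transcripts were at 97.8 CPM (UMIs of the gene per 1000000 UMIs, here the unit of every level) in the library labelled 10% Tet2-/- BMT and at 81.7 in the other. Because the kit counts 3′ ends and the removed part is not stated, this level does not check the genotype, and every direction below rests on the labels.

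Summed over the 32 members, the level was lower in 10% Tet2-/- BMT in 10 of the 11 named classes. Over all kept cells it was 1356 CPM against 1869 in 10% Tet2+/+ BMT, which is 1.38-fold lower (interval 1.37 to 1.39). Macrophage-like cells had the highest sum in both libraries, 2884 against 3797 CPM (1.32-fold lower, 1.29 to 1.34), followed by neutrophil-like cells with 1819 against 2571 (1.41-fold, 1.40 to 1.43). T cell-like cells showed the largest ratio, 1162 against 1795 CPM (1.54-fold, 1.48 to 1.61). Monocyte-like cells were at 1199 against 1659 CPM (1.38-fold) and dendritic-like cells at 1552 against 1843 (1.19-fold). Immature neutrophil-like cells had the lowest sum and a small ratio, 442 against 479 CPM (1.08-fold, 1.05 to 1.12). In mast cell or basophil-like cells, with 10 and 37 cells, the sum was 681 against 637 CPM and the interval of the ratio held 1. Which class a member marked most strongly varied: of the 32, 19 had their highest level in macrophage-like and 12 in neutrophil-like cells of 10% Tet2+/+ BMT, against 21 and 7 in 10% Tet2-/- BMT.

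**Figure D1:**
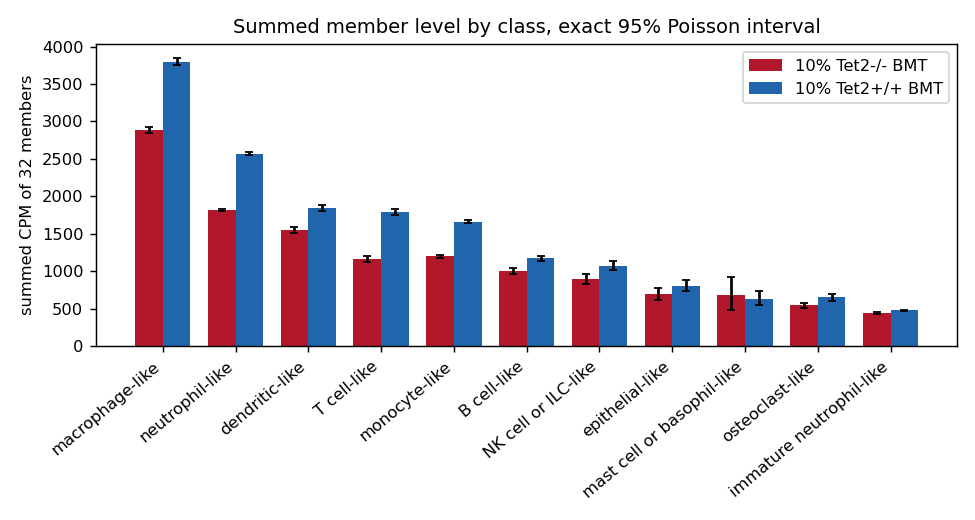
Bars give the summed level of the 32 members in CPM (vertical axis) in each marker-named class of the 10% Tet2-/- BMT (red) and 10% Tet2+/+ BMT (blue) libraries, 1 library each, with exact 95% Poisson intervals. The red bar is below the blue one in 10 of 11 classes, for example 1819 against 2571 CPM in neutrophil-like cells.

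Neutrophil-like cells (4207 and 6079, median 3925 and 4016 UMIs) formed the class with the most member UMIs. A gene counted as eligible if it reached 50 CPM in at least one library with no fewer than 100 UMIs in total. It was called where the difference, after adding 10 CPM to each level, was at least 1.5-fold. Of 16 eligible members 6 were called lower in 10% Tet2-/- BMT, 0 higher and 10 lay between, where 8.35% of all 2430 eligible genes were called lower and 2.84% higher. The rule admits a gene through its higher library alone. Of the called members Ifit1, Ifit3 and Bst2 reached 50 CPM only in 10% Tet2+/+ BMT. So did Ddx58, Zbp1, Irf9 and Parp14, which were not called. The share over all genes was counted under the same rule. The median log2 ratio was -0.46 over the eligible members and -0.12 over all eligible genes. Counted without a size rule, 31 of 32 members had a ratio below 1 with an interval that did not reach 1, and only Isg20 was above. All genes were not counted in this way, so the count has no share beside it. Relative to all genes the difference was smaller. A trimmed mean of log ratios (TMM), which rescales on the assumption that most genes match, put a shift of -0.33 (log2) on neutrophil-like cells. The median log2 ratio over all eligible genes moved from -0.12 to 0.18 with this scaling, so it did not centre these genes. After it, the calls over all eligible genes turned from 203 lower and 69 higher to 59 lower and 274 higher. The summed member level was then 1.12-fold lower, 28 of 32 members stayed below 1, 4 eligible members were called lower (2.43% of all eligible genes), and Oas3, Isg15, Ifi204 and Isg20 lay at or above the 10% Tet2+/+ BMT level. In monocyte-, macrophage-, dendritic- and T cell-like cells the same shift lay between -0.03 and 0.01.

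**Figure D2:**
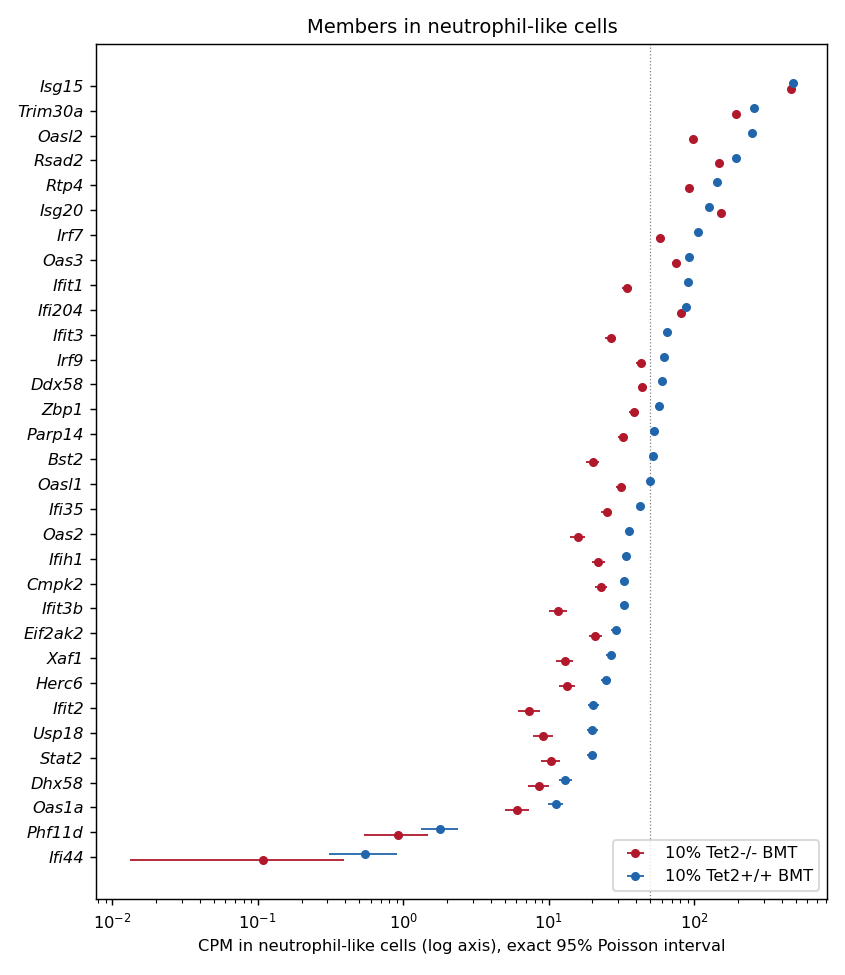
Each point is a member's level in CPM (horizontal, logarithmic axis) in neutrophil-like cells of 10% Tet2-/- BMT (red) or 10% Tet2+/+ BMT (blue), with its exact 95% Poisson interval, ordered by the 10% Tet2+/+ BMT level. The dotted line marks 50 CPM, and only Isg20 has the red point to the right.

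The IFIT proteins, which bind foreign RNA and block its translation, differed most as a group. Their 4 transcripts summed to 80.2 against 208 CPM, 2.60-fold lower in 10% Tet2-/- BMT and 2.07-fold after TMM scaling. Ifit1 (chromosome 19, 34640871 to 34650009) stood at 34.5 CPM in 10% Tet2-/- BMT and 90.6 in 10% Tet2+/+ BMT, a 2.62-fold difference (2.40 to 2.87). For Ifit3 (34583531 to 34588731) the levels were 26.7 and 64.8 CPM, a 2.43-fold difference. Ifit2 (7.35 against 20.3 CPM) and Ifit3b (11.6 against 32.8) were below the minimum level and had ratios of the same size. Ifit3 and Ifit3b are close copies, so reads may have been divided between them in counting.

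The oligoadenylate synthetases make a messenger that switches on the nuclease RNase L, while Oasl1 and Oasl2 are relatives. The 5 summed to 227 against 438 CPM, 1.93-fold lower and 1.53-fold after TMM scaling. Within the family the ratios were uneven. Oasl2 was at 98.6 against 249 CPM (2.53-fold lower, 2.40 to 2.66), and after drawing each cell down to 1000 UMIs it was detected in 8.93% against 21.01% of neutrophil-like cells (23.5% against 47.7% undrawn). In immature neutrophil-like cells, the class with the lowest sum, the drawn-down share of Oasl2 was 1.22% against 3.14%, at a median of 10671 and 12108 UMIs. Oas3 (chromosome 5, 120753098 to 120777661) had 74.7 CPM in 10% Tet2-/- BMT and 92.3 in 10% Tet2+/+ BMT, a 1.24-fold difference, and after TMM scaling the 2 libraries were level for it. Oas2 (2.26-fold), Oas1a (1.83-fold) and Oasl1 (1.58-fold) were lower below the minimum level.

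Isg15 (chromosome 4, 156199424 to 156200818), a modifier attached to other proteins and also secreted, took the largest part of the member UMIs in neutrophil-like cells and hardly differed. It was at 463 CPM in 10% Tet2-/- BMT and 479 in 10% Tet2+/+ BMT, 1.03-fold lower (1.01 to 1.06), and its drawn-down share of positive cells was 23.4% against 23.3%. Without Isg15 the sum of the other 31 was 1.54-fold lower. Usp18, the protease that removes Isg15, was at 9.15 against 19.9 CPM and Herc6, a ligase for Isg15 in mice, at 13.4 against 24.9, both below the minimum level. With Isg15 dominating, the 3 summed to 485 against 524 CPM (1.08-fold lower), and after TMM scaling their sum was higher in 10% Tet2-/- BMT (ratio of 10% Tet2+/+ over 10% Tet2-/- BMT 0.857).

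Of the 6 sensors and kinases of foreign nucleic acid 3 were eligible in neutrophil-like cells, and none of these was called, which for 3 genes cannot be told from the 8.35% over all eligible genes. Ifi204 (chromosome 1, 173747293 to 173766943), a DNA sensor, was nearly level at 81.4 against 87.8 CPM (1.08-fold lower). Ddx58, which encodes the RNA sensor RIG-I, was at 44.1 against 60.2 CPM, and Zbp1, which senses Z-form nucleic acid, at 38.6 against 57.6. Ifih1, Dhx58 and Eif2ak2 were 1.38- to 1.54-fold lower below the minimum level. Of the factors, Irf7 was called lower at 58.2 against 107 CPM (1.83-fold), while Irf9 was at 42.9 against 61.7 (1.44-fold) and Stat2 at 10.3 against 19.9. Irf7 lost its call after TMM scaling, at 1.46-fold.

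Among the other effectors, Bst2 (chromosome 8, 71534255 to 71537456), a tether that holds virus particles on the cell surface, was at 20.1 against 52.2 CPM (2.60-fold lower). Rtp4 was at 91.7 against 143 CPM (1.56-fold, called; 1.24-fold after TMM scaling, not called). Trim30a (chromosome 7, 104409025 to 104465193) was at 192 against 258 CPM, and Rsad2, which encodes the antiviral enzyme viperin, at 148 against 194, both between the thresholds. Cmpk2, beside Rsad2 on chromosome 12, was at 22.8 against 32.9 CPM. Isg20 (chromosome 7, 78913424 to 78920396), an RNA exonuclease, was the member that went the other way, at 154 against 126 CPM (ratio 1.22, 1.16 to 1.28). Parp14, Ifi35 and Xaf1 were 1.64-, 1.70- and 2.08-fold lower, the last 2 below the minimum level, and Ifi44 and Phf11d held 2 to 49 UMIs per library.

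Neutrophil-like cells formed 6 clusters when members were left out of the clustering, and the summed level was lower in 10% Tet2-/- BMT in all 6. The ratios ran from 1.24-fold in the cluster led by Acod1 and 1.28-fold in that led by Retnlg to 1.61-fold in that led by Jaml and 1.91-fold in that led by Csf3r, Fgl2 and Tgm2. Of the 32 members 21 were lower in all 6 clusters, 7 in 5, 3 in 4 and Isg20 in 3. The like count over all genes was not made. Oasl2 was lower in every cluster, by 2.21- to 3.71-fold. Isg15 was lower in 5, by 1.13- to 1.46-fold, and level in the Retnlg-led one at 72.6 against 69.6 CPM. The cells were spread differently over the clusters: the 2 clusters led by Acod1 and Ccl3, which had high Isg15 (894 and 710 CPM in 10% Tet2-/- BMT, 1011 and 974 in 10% Tet2+/+ BMT), made up 24.5% and 14.3% of neutrophil-like cells in 10% Tet2-/- BMT but 13.5% and 3.22% in 10% Tet2+/+ BMT. Isg20 was highest in the Ccl3-led cluster as well, at 383 against 288 CPM.

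To ask whether the difference lay in how many cells carried an interferon signature or in the level within them, signature cells were defined in 3 ways, which gave different answers. The first took clusters made without the members whose 10 leading genes held at least 3 of 47 other interferon-responsive genes. Only the Csf3r-led neutrophil cluster met this, at its minimum (Slfn4, Slfn1 and Trim30d), and it held 14.3% of neutrophil-like cells in 10% Tet2-/- BMT (602) and 18.9% in 10% Tet2+/+ BMT (1150). Inside it the summed level was 2851 against 5437 CPM (1.91-fold lower, 1.85 to 1.964), and 20 of 24 eligible members were called lower where 4.08% of all eligible genes were. In the remaining neutrophil-like cells the sum was 1694 against 2086 CPM (1.23-fold lower), 3 of 12 members were called lower where 10.4% of genes were, and after TMM scaling the ratio of 10% Tet2+/+ over 10% Tet2-/- BMT turned to 0.965. TMM scaling left 17 of 24 eligible members called lower inside the cluster, where 2.82% of all eligible genes were. Outside it 1 of 12 was then called lower and 1 higher, where 74 of 2393 genes were called lower and 325 higher. For so few genes the counts outside cannot be told from those shares. The median log2 ratio over all eligible genes outside was 0.20 after this scaling. The Acod1-led cluster, which did not meet the rule, had a summed level of 2755 against 3419 CPM, close to the Csf3r-led one in 10% Tet2-/- BMT. At a coarser resolution no cluster met the rule and at a finer one another cluster, led by Siglecf, did, so this definition depends on the clustering. Of the 1752 cells in the Csf3r-led cluster, 400 (22.8%) were also signature cells by the score described next, which is 38.9% of the latter.

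The second definition took, in each class, the top 10% of cells of both libraries by the share of UMIs from the 45 of those 47 genes that were found. Those genes respond to interferon as the members do, so the cut can by construction draw member levels together on each side of it. This definition cuts a range rather than a cell type, and 403 of 10286 neutrophil-like cells lay within 10% of the threshold. Such cells were 5.21% of neutrophil-like cells in 10% Tet2-/- BMT (219, interval 4.55 to 5.92) and 13.3% in 10% Tet2+/+ BMT (810, 12.5 to 14.2). With the score rescaled by TMM the shares were 7.46% and 11.8%. Inside these cells the summed level was 9836 against 10416 CPM, only 1.06-fold lower, and outside them 1451 against 1568, 1.08-fold lower. Called lower were 4 of 28 eligible members inside, where 9.5% of genes were, and 1 of 10 outside, where 8.04% were. For so few genes these counts cannot be told from those shares. After TMM scaling both sums were higher in 10% Tet2-/- BMT, with ratios of 10% Tet2+/+ over 10% Tet2-/- BMT of 0.916 inside and 0.864 outside. The median log2 ratio over all eligible genes was then 0.06 inside and 0.18 outside. The calls then became 1 lower and 0 higher of 28 members inside, where 113 of 2547 eligible genes were called lower and 195 higher. Outside they became 1 lower (Oasl2) and 2 higher (Isg15 and Isg20) of 10, where 61 of 2413 genes were called lower and 273 higher. The third definition, clustering with the members left in, chose its cells partly by the members, so its values are a description: 241 and 875 neutrophil-like cells, 9755 against 10403 CPM inside and 1219 against 1308 outside. It also gave a signature cluster named monocyte-like, of 72 and 156 cells. The sum there was higher in 10% Tet2-/- BMT, at 9394 against 7659 CPM (ratio 1.23, 1.20 to 1.26). Its cells need not be those named monocyte-like when members were left out. With members left in, the C1qa-led macrophage-like cluster fell from 604 and 537 cells to 524 and 385. The Fn1-led monocyte-like cluster stayed near its size, at 691 and 686, then 691 and 673. Which cells moved was not traced.

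In each of the 6 neutrophil clusters the share of score-defined signature cells was lower in 10% Tet2-/- BMT, and in 5 of them the intervals of the 2 libraries did not overlap. It was 12.96% against 28.0% in the Csf3r-led cluster and 3.70% against 12.0% in the Jaml-led one. The exception was the Retnlg-led cluster, nearly level at 0.906% against 0.911%. Members were also detected together in single cells. Of neutrophil-like cells with Ifit1 after drawing down, 55.2% and 58.5% had Rsad2, against 7.78% and 8.47% of cells without Ifit1.

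**Figure D3:**
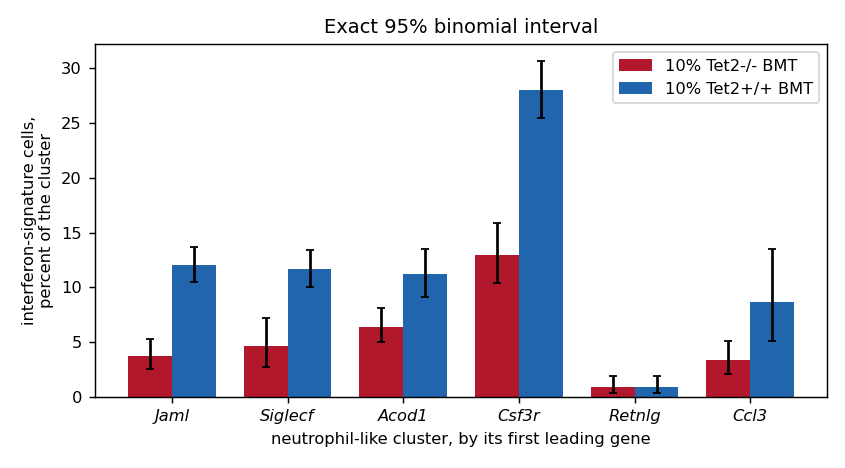
Bars give score-defined interferon-signature cells as a percentage of each neutrophil-like cluster (vertical axis), by the cluster's first leading gene, in 10% Tet2-/- BMT (red) and 10% Tet2+/+ BMT (blue), with exact 95% binomial intervals. The Csf3r-led cluster is highest in both libraries, at 12.96% and 28.0%.

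The difference of 752 CPM between the libraries' neutrophil-like sums was split into a part from the mix of strata and a part from the level within them. With the score strata, 79.6% came from the mix and 20.4% from the level (70.4% and 89.2% from the mix with the top 5% and 20%). Because the score is made of other interferon-responsive genes, its strata can by construction place a difference of level in the mix. With the 6 clusters as strata, -15.7% came from the mix and 115.7% from the level, so the split depends on how strata are drawn. Macrophage-like cells gave 98.8% and -1.70% from the mix under the same 2 choices, and monocyte-like cells 26.2% and 29.6%.

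**Figure D4:**
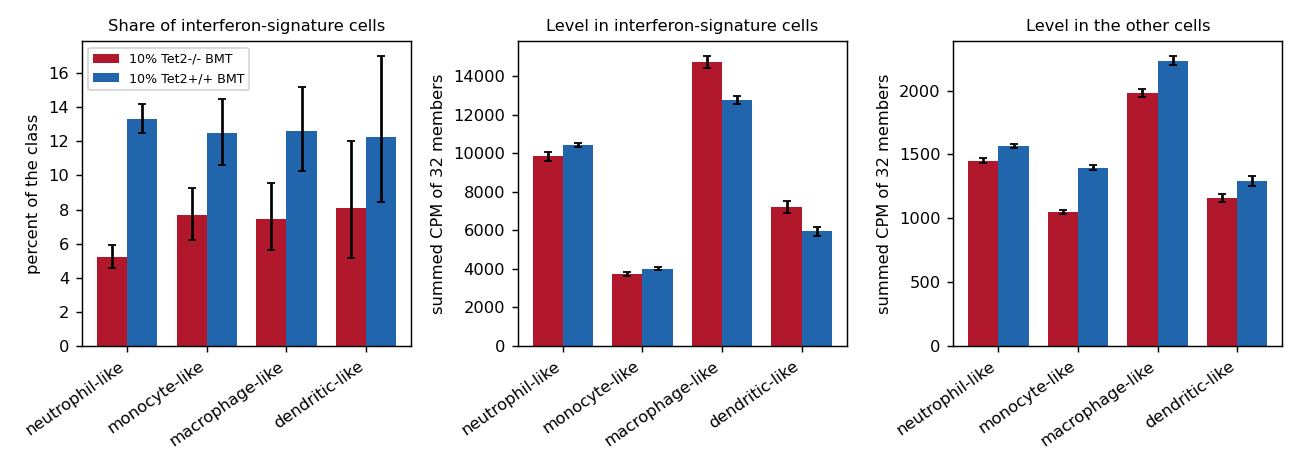
The left panel gives score-defined interferon-signature cells as a percentage of 4 classes with exact 95% binomial intervals, and the other panels the summed member level in CPM in those cells and in the remaining cells with exact 95% Poisson intervals, for 10% Tet2-/- BMT (red) and 10% Tet2+/+ BMT (blue). In neutrophil-like cells the shares are 5.21% and 13.3%, while both levels differ by less than 1.1-fold.

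Single members behaved unequally across the score-defined split. Outside the signature cells Oasl2 was still 2.27-fold lower in 10% Tet2-/- BMT (80.1 against 182 CPM, 2.14 to 2.42). It was the 1 of 10 eligible members called lower there, where 8.04% of genes were. Oas2 (13.2 against 26.6 CPM, 2.03-fold) and Bst2 (15.4 against 30.2, 1.964-fold) were similarly lower but below the minimum level. In contrast Isg20 was called higher outside, at 137 against 84.8 CPM, where 3.11% of genes were called higher. Isg15 (370 against 283 CPM), Rsad2 (98.8 against 85.0) and Ifi204 (67.5 against 54.5) were also above the 10% Tet2+/+ BMT level there. Inside the signature cells Isg15 (2491 against 2010 CPM), Rsad2 (1218 against 1051) and Isg20 (522 against 449) were again higher. Bst2 (1.82-fold), Stat2 (1.87-fold), Usp18 (1.60-fold) and Oasl2 (1.54-fold) were called lower there. For so few genes, 4 of 28 eligible members cannot be told from the 9.5% of all genes called lower inside. Of these 4, Bst2 (1.58-fold) kept its call after TMM scaling, and Stat2 (1.61-fold, short of the threshold once 10 CPM is added), Usp18 (1.38-fold) and Oasl2 (1.33-fold) lost theirs. Outside, Oasl2 kept its call after TMM scaling (1.82-fold lower). Ifit1 was at 432 against 629 CPM inside, 1.46-fold lower, and 16.3 against 21.8 outside, 1.34-fold. For Oasl2 76.7% of the whole-class difference came from the level within strata, against 36.7% for Ifit1 and 20.4% for Ifit3. With the 6 clusters as strata the same shares were 102.7%, 90.7% and 84.1%, so the contrast between these genes depends on the strata. Of the 30 members with at least 100 UMIs on both sides, 23 were lower on both and 4 higher on both. The like count over all genes was not made. After TMM scaling the direction was divided, with 18 of 32 members lower inside and 17 of 32 outside.

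**Figure D5:**
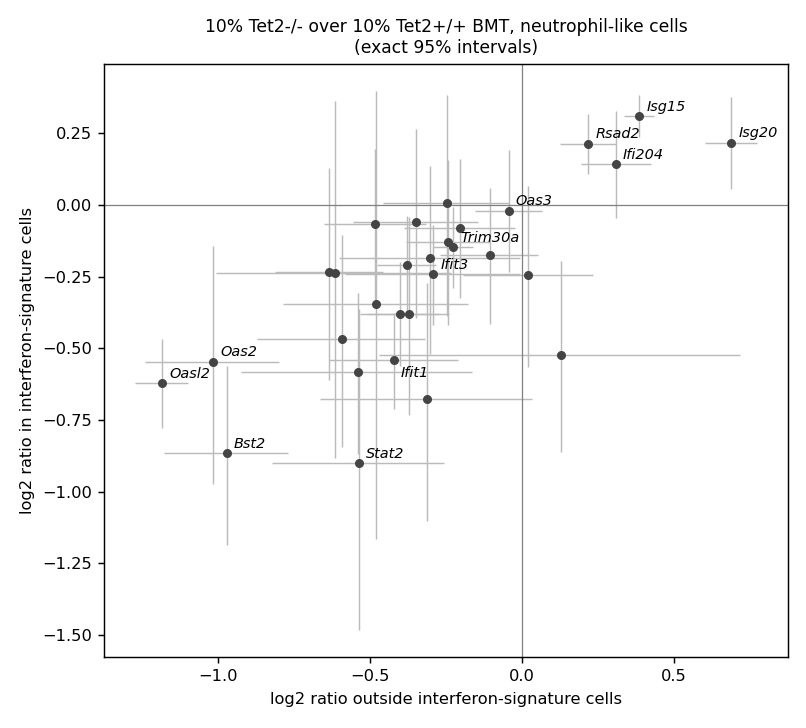
Each point is a member, placed by the log2 ratio of its CPM in 10% Tet2-/- over 10% Tet2+/+ BMT neutrophil-like cells outside (horizontal axis) and inside (vertical axis) the score-defined signature cells, with exact 95% intervals, for 30 members. With levels relative to all UMIs and before TMM scaling, Oasl2, Bst2 and Oas2 lie at the lower left, and Isg15, Isg20, Rsad2 and Ifi204 at the upper right.

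In monocyte-like cells (1228 and 1187) 3 of 12 eligible members were called lower where 1.31% of genes were, and 0 higher, where 1.75% were. They were Oasl2 (37.3 against 76.4 CPM, 2.05-fold), Rtp4 (31.0 against 54.7, 1.76-fold) and Irf7 (74.6 against 117, 1.57-fold). Isg15, level in neutrophil-like cells, was 1.42-fold lower here at 89.7 against 127 CPM. Between the libraries nearly all typed cells of this class differed in sex. Among Y-carrying cells the interval of the ratio of sums held 1, as given below. Signature cells by score were 7.65% against 12.5% of the class. Inside them 2 of 26 eligible members, Ifit1 and Usp18, were called lower where 1.44% of genes were. Outside the signature cells the sum remained 1.33-fold lower (1051 against 1396 CPM). Oasl2 was the 1 of 9 eligible members called lower outside, where 1.28% of genes were called lower.

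In macrophage-like cells (727 and 738) 6 of 24 eligible members were called lower where 1.55% of genes were: Ifit1 (44.0 against 95.1 CPM), Ifit2 (70.9 against 113), Oas3 (32.6 against 57.2), Oasl2 (72.7 against 134), Irf7 (172 against 296) and Phf11d (50.8 against 85.6). None was called higher, where 0.791% of genes were. Bst2, 2.60-fold lower in neutrophil-like cells, was level in macrophage-like cells at 608 against 611 CPM. Signature cells by score were 7.43% (54 cells) against 12.6% (93). Inside them the direction turned, with a summed level of 14738 against 12774 CPM. Of 32 eligible members 3 were called higher, Ifit3, Ifit3b and Rsad2 (1.59-, 1.59- and 1.60-fold), where 2.84% of genes were. For 26 of the 32 members the interval of the ratio held 1. Outside the signature cells the sum was 1.13-fold lower, and Oasl2, 1 of 11 eligible members, was called lower (52.6 against 89.9 CPM) where 1.09% of genes were.

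In dendritic-like cells (271 and 245) Xaf1 alone of 11 eligible members was called lower (32.9 against 58.7 CPM) where 0.986% of genes were. Their 22 and 30 signature cells had a summed level of 7213 against 5944 CPM. Of 18 eligible members 4 were called higher, Ifit2, Ifit3, Rsad2 and Parp14 (1.95- to 2.47-fold), where 4.21% of genes were. For 20 of the 32 members the interval of the ratio held 1. T cell-like cells (202 and 329) had 8 of 16 eligible members called lower, where 1.45% of genes were. Among them Rsad2 was at 10.8 against 50.3 CPM, Ifit1 at 24.0 against 58.2 and Isg15 at 104 against 176. In B cell-like cells Rsad2, 1 of 10 eligible members, was instead called higher, at 72.6 against 42.0 CPM, where 1.45% of genes were. It reached the minimum level there only in 10% Tet2-/- BMT. Dendritic-like Xaf1 and T cell-like Rsad2 and Ifit1 did so only in 10% Tet2+/+ BMT.

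Transcripts of the type I and III interferons listed (Ifnb1, 4 Ifna genes, Ifnk, Ifne, Ifnl2 and Ifnl3) held 0 to 2 UMIs each in all kept cells of a library, too few for a comparison. Ifng held 379 and 590 UMIs. In neutrophil-like cells none of the 6 eligible receptor and kinase genes, 6 signal factors and 1 induction gene was called, where 8.35% of all eligible genes were called lower and 2.84% higher. For so few genes this cannot be told from that share. Ifnar1 was at 74.1 against 69.3 CPM and Ifnar2 at 117 against 128. In macrophage-like cells Jak2, 1 of 6 eligible receptor and kinase genes, was called lower (30.8 against 52.1 CPM), where 1.55% of genes were. It reached the minimum level only in 10% Tet2+/+ BMT. Of the 47 other interferon-responsive genes, 17 were eligible in neutrophil-like cells and 6 were called lower, where 8.35% of all eligible genes were: Slfn4 (193 against 401 CPM), Slfn5 (85.4 against 190), Ly6e (291 against 520), Ifi27l2a (570 against 928), Cxcl10 (40.7 against 80.2) and Trim30d (68.6 against 115). Cxcl10 reached the minimum level in these cells only in 10% Tet2+/+ BMT. The 6 calls were made before TMM scaling, and none is given after it. The genes also enter the signature score, so they are not separate evidence on the share of signature cells. In monocyte-like cells 3 of 19 eligible genes of this list were called lower, where 1.31% of genes were. Cxcl10, a chemokine, was called higher there at 82.5 against 29.7 CPM, where 1.75% of genes were. It reached the minimum level there only in 10% Tet2-/- BMT.

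In 10% Tet2-/- BMT most typed cells carried Xist in place of Y-linked transcripts. The counts were 1106 against 24 in monocyte-like, 241 against 6 in dendritic-like and 335 against 155 in macrophage-like cells. Typed cells of 10% Tet2+/+ BMT were nearly all Y-carrying, so sex and group largely cannot be told apart. Summed levels in neutrophil-like cells were 1541 CPM in the 979 Xist-carrying and 1964 in the 193 Y-carrying cells of 10% Tet2-/- BMT, and 2492 in the 3265 Y-carrying cells of 10% Tet2+/+ BMT. In macrophage-like cells the order within 10% Tet2-/- BMT was the other way, 3132 CPM in Xist-carrying and 2480 in Y-carrying cells, both below 3881 in Y-carrying cells of 10% Tet2+/+ BMT. Y-carrying monocyte-like cells were at 1738 CPM in 10% Tet2-/- BMT (24 cells) against 1645 in 10% Tet2+/+ BMT. The ratio of 10% Tet2+/+ over 10% Tet2-/- BMT was 0.946 (0.875 to 1.03), so its interval held 1, unlike that of the whole class. Y-carrying dendritic-like cells were at 1260 CPM (6 cells) against 1788. The part of sex in these ratios was not tested. Free RNA moved with the groups as well: barcodes with 1 to 50 UMIs held the members at 1309 against 1806 CPM (1.38-fold lower). Haemoglobin transcripts put free RNA at up to 16.6% of neutrophil-like UMIs in 10% Tet2-/- BMT and 41.4% in 10% Tet2+/+ BMT. Immunoglobulin transcripts set lower limits of this kind, at most 15.1% and 19.6%, and gland transcripts higher ones, 22.8% and 62.3%. The gap between the libraries thus depended on the genes used. Subtraction by haemoglobin left the neutrophil-like sum 1.52-fold lower. In macrophage-like cells the order by haemoglobin was the other way, 29.0% against 1.28%, and subtraction left the sum 1.15-fold lower in place of 1.32-fold.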

How the data were processed

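Gingival CD11b+ cells of 2 groups, 1 library each, were profiled with the Chromium 3′ kit version 3.1, with about 20000 cells loaded per the labels. The submitters' processing notes name mm10 and Cell Ranger 6.1.2, while the matrix headers name version 4. The deposited files hold raw counts of UMIs per gene and barcode, 93919724 and 100782700 in all. The members, lists and rules were chosen with earlier results of these data known.

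Of 9844 and 12161 barcodes with 500 UMIs, 248 and 489 failed the filters on 250 genes and 10% mitochondrial UMIs. Doublets were kept. Counts were scaled to 10000 per cell and logged; 2000 variable genes without members and without Y-linked, Xist, Tsix, haemoglobin, mitochondrial and ribosomal genes gave 30 components, 20 neighbours and Leiden clusters at resolution 1 (leidenalg 0.10.2, igraph 0.11.9). Cluster names used marker lists, with thresholds for naming set when clusters were seen. UMIs were summed per class and library and divided by the class total. Levels carry exact Poisson, ratios exact conditional binomial and shares Clopper-Pearson intervals. Positions came from GENCODE M21, in which all 32 identifiers matched. Members given in full were the 4 largest and 4 smallest log2 ratios and the 5 highest levels among eligible members in neutrophil-like cells. Splits into mix and level, co-detection and counts over clusters were added after levels were seen. Some genes of the lists are not reported here. The computation was checked on simulated counts. Alternatives were other cell filters, resolutions, scalings, pseudocounts, signature definitions, removal of doublet scores (Scrublet's score, recomputed), free RNA and cells typed by sex.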

Additional observations from a re-analysis of the deposited data

Results flagged for a closer look

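With 1 library per group these differences of direction were not tested, and the values below describe these 2 libraries. The summed level was higher in 10% Tet2-/- BMT in score-defined signature cells of the macrophage-like class (ratio 1.15, 1.12 to 1.19; 54 and 93 cells) and of the dendritic-like class (1.21, 1.15 to 1.28; 22 and 30 cells), against the lower level in the classes as a whole. The same direction appeared in 3 clusters: an immature neutrophil-like one led by Orm1, Camp and Ltf (1.18, 1.07 to 1.31; 300.4 against 254 CPM), an unnamed one led by Arg1, Spp1 and Ccl22 (1.15, 1.09 to 1.22; 1712 against 1488 CPM; 310 and 79 cells), and an unnamed one led by Hpgds, Dst and AI504432 (1.35, 1.03 to 1.76; 17 and 42 cells).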

How the results depend on the processing

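Of 103 values under alternatives 61 stayed within the counting interval or near the count of the reported value, 40 moved and 2 reversed. Values are log2 ratios of the summed level, 10% Tet2-/- over 10% Tet2+/+ BMT, and shares are differences in percentage points. As reported they were -0.50 in neutrophil-, -0.47 in monocyte-, -0.40 in macrophage- and -0.25 in dendritic-like cells, -0.30 in neutrophil-like cells outside the signature cluster, and -4.61 for its share. The mean of per-cell CPM gave -0.52, -0.37, -0.31 and -0.16 in the 4 classes. TMM scaling gave -0.17 in neutrophil- and -0.37 in macrophage-like cells, and turned the value outside the signature cluster to 0.051. Subtracting free RNA by haemoglobin gave -0.61 and -0.20 in these classes, and by the lowest of 3 gene groups (added after the first values were seen) -0.53 and -0.20. Leaving members in the clustering gave -0.57, -0.55 and -0.18 in neutrophil-, monocyte- and macrophage-like cells, -0.10 outside and a share of -8.18. This setting also redrew the classes, so its values for monocyte- and macrophage-like cells are of other sets of cells. Resolution 2 gave -0.36 in macrophage- and -0.33 in dendritic-like cells and -0.23 outside. The score gave -0.11 outside and a share of -8.12. Without Isg15 the values were -0.63 in neutrophil-like cells and -0.43 outside. Dropping cells whose doublet score lay in the top 8% gave -0.19 in dendritic-like cells. Xist-carrying 10% Tet2-/- against Y-carrying 10% Tet2+/+ BMT cells gave -0.69, -0.31 and -0.18 in neutrophil-, macrophage- and dendritic-like cells, -0.56 outside and a share of -7.17. Y-carrying cells of both gave -0.34 and -0.65 in neutrophil- and macrophage-like cells, -0.093 outside and a share of -7.03. In monocyte-like cells they reversed the sign to 0.080 (24 cells in 10% Tet2-/- BMT), where the interval of the ratio held 1. The 6 members called lower became 12 with no minimum level. Of settings added after the data were seen, leaving out the Siglecf-led cluster gave -0.57 in neutrophil-like cells, -0.27 outside and a share of -9.27; the top 5% by score gave -0.18 outside; the top 20% gave -0.041 outside and a share of -13.1; and the score after TMM scaling gave -0.25 outside. Apart from the free RNA subtraction and TMM scaling, whose construction changes the levels compared, the cause was not tested. Resolution 0.5 gave no signature cluster. Y-carrying dendritic-like cells (6 in 10% Tet2-/- BMT) fell below the minimum number of cells for these alternatives, so only their levels are given above. No paired analysis was possible because each group has 1 library.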

Other observations

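The unnamed Arg1-led cluster, with the matrix protease Mmp13, the secreted protein Spp1 and the chemokine Ccl22 among its leading genes, held 310 cells in 10% Tet2-/- BMT and 79 in 10% Tet2+/+ BMT. Over the 48 cluster and library combinations with at least 50 cells, the genes outside the list whose CPM followed the summed member CPM most closely were Ppt1, Marcks, Wfdc17, Slfn5, Il10rb, Cyth4, Chmp4b, Cd300c2 and Sdcbp (Spearman's rho 0.88 to 0.82 across 2518 genes ranked). These points share libraries and depth, and only Slfn5 is among the 47 other interferon-responsive genes.

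Member UMIs were unevenly spread over cells. The 5% of neutrophil-like cells with the most member UMIs held 32.7% of them in 10% Tet2-/- BMT and 35.8% in 10% Tet2+/+ BMT, against 21.6% and 22.1% in monocyte-like cells. The 99th percentile of member UMIs per 10000 was 162 and 267 in neutrophil-like cells, and the median 9.86 and 12.7.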
